A study of Mus musculus with 44 samples.

Results

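The genes described here are 10 transcription factors of striatal projection neurons: Bcl11b, Foxp1, Foxp2, Isl1, Ebf1, Six3, Sp9, Meis2, Rarb and Zfp503. They were chosen by name, with earlier results of these data known. Each was followed through every chromatin and RNA library of the series, in chromatin by the peaks that overlap its gene span extended by 20 kb on either side (a window, mm10). They are 10 of the 21883 coding genes that were given such a window. All 10 windows held peaks in the striatum, 7 held peaks in the paraventricular thalamic nucleus (PVT) and 9 held peaks in the cortex (COR).

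The series, titled for PVT neurons of a mouse model of bipolar disorder, holds 44 mouse libraries, of which 40 were used: 16 of chromatin bearing H3K27ac, the acetylated histone found at promoters and enhancers in use, 4 of open chromatin (ATAC-seq) and 20 of RNA. H3K27ac was read in PVT, in COR and in both parts of the striatum, the caudate putamen (CP) and the nucleus accumbens (NAC). Each region had 2 libraries of wild-type (WT) mice and 2 of Polg(D181A) mice. ATAC-seq covered PVT, with 2 libraries of each genotype, and RNA covered PVT material in 5 groups of 4. Inputs, 4 libraries pooled over genotypes, were left aside. All H3K27ac and RNA libraries came from adult C57BL/6 animals, per the labels, while the strain field of the adult ATAC libraries reads C57BL/7 and C57BL/8 for WT and C57BL/9 and C57BL/10 for Polg(D181A). Polg encodes the catalytic subunit of the mitochondrial DNA polymerase, and D181A is a substitution in it. The labels name no promoter or cell type for the mutant protein. The RNA groups were WT, euthymic, COX staining positive; Polg(D181A), euthymic, COX positive; Polg(D181A), euthymic, COX negative; and Polg(D181A), depressive, COX positive or COX negative. There was no WT group in the depressive state or with negative COX staining. Chromatin was taken from nuclei sorted on NeuN, a protein of neuronal nuclei, so the H3K27ac values are averages over all sorted neurons of a region. In such bulk material, fewer cells of a type and less signal per cell cannot be told apart. Whether replicates are different animals is not stated in the labels, and p-values therefore weigh differences against the spread between libraries, which may be technical.

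Striatal projection neurons are the GABAergic output cells of CP and NAC. They arise in the lateral ganglionic eminence of the embryonic forebrain and split into the direct pathway, marked by the dopamine receptor Drd1, and the indirect pathway, marked by Drd2. Bcl11b, Foxp1, Meis2 and Rarb are made broadly in these neurons, Isl1, Ebf1 and Zfp503 are known for the direct pathway, and Six3 and Sp9 for the indirect pathway. Foxp2 is made in the striatum and also in thalamus and deep cortex.

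The RefSeq promoter table (GRCm38.p6, which is mm10, from 250 bases before to 50 bases after a gene start) held 12 entries for 9 of the genes. Entries of 3 genes, Isl1, Six3 and Meis2, lay under H3K27ac peaks of both CP and NAC and under no peak of PVT or COR, a pattern shared by 1.35% of the 21262 promoters of coding genes. They are shown because peaks covered them in the striatum alone. The Six3, Meis2 and Rarb entries lie inside the gene spans and so mark internal starts. At the Isl1 entry the CP peak rests on 1 library (18.4, 0, 0 and 0.0992 CPM). The entry of Rarb is shown with them for the repeat it holds. The Isl1 promoter is chr13:116309639-116309938 on the minus strand, Six3 is chr17:85620584-85620883 on the plus strand, Meis2 is chr2:116064570-116064869 on the minus strand and Rarb is chr14:16575427-16575726 on the minus strand. Sequences run 5′ to 3′ along the gene, and capitals mark matches to the motifs listed after them.
Isl1: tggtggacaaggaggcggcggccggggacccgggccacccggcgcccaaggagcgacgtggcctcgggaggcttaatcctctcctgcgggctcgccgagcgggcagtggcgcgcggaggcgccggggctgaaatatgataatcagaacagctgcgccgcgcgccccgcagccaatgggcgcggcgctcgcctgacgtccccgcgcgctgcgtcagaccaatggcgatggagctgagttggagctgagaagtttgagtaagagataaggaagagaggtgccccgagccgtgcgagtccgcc
Six3: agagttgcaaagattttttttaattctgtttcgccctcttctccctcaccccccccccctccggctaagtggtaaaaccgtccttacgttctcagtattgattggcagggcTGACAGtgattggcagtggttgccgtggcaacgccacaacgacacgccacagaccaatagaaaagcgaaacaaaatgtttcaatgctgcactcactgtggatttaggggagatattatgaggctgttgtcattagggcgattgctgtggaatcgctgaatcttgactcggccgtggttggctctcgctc
Meis2: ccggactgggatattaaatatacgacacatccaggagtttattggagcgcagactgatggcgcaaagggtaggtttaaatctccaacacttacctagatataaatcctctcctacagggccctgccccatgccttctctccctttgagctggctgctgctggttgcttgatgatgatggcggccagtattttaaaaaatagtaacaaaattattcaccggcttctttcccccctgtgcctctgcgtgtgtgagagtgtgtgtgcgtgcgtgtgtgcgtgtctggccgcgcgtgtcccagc
Rarb: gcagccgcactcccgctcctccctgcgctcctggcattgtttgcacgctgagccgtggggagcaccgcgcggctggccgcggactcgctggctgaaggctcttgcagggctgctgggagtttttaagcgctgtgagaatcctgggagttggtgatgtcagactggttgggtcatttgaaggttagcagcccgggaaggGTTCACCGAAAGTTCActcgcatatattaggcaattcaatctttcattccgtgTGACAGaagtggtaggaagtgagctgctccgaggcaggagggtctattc
The Isl1 promoter was 69.0% G and C with 37 CpG dinucleotides, against medians of 56.3% and 13 over all promoters. Six3 (50% and 14 CpG), Meis2 (51.0% and 13 CpG) and Rarb (57.7% and 17 CpG) lay closer to those medians. Each motif was searched on both strands. A direct repeat of GTTCA with 6 bases between the copies, of the kind known as a retinoic acid response element, was found in the Rarb promoter and in 0.0658% of all promoters. Rarb is itself a retinoic acid receptor, and such an element in its promoter is well known. TGACAG, a core bound by Meis-type homeodomain proteins, was found in 3 of the 12 promoters (Rarb, Six3 and an internal Foxp1 start) and in 18.7% of all. TAATTA, a homeodomain core, was in the same internal Foxp1 promoter and in 4.53% of all, and GGGCGG, the GC box of Sp-type factors, was in 3 of the 12 (Sp9 and 2 Foxp1 starts) and in 46.2% of all. TGTTTAC (forkhead, 3.01% of all), TCCC and GGGA with 2 bases between them (Ebf type, 0.959%) and AGGTCA (nuclear receptor half-site, 14.7%) were in none of the 12. No motif of the search overlapped another in the promoters shown. A match or its absence describes these letters only.

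H3K27ac reads in peaks numbered 52566179 to 197650530 per library in PVT and COR, 12048787 to 101443484 in CP and 6415127 to 80516545 in NAC. ATAC libraries held 2932270 to 8040451 reads in peaks, and RNA libraries 26719334 to 115285349 reads in genes. Each H3K27ac table has its own peak set, so a window with no peak in a table reads 0 there. Within a table, peaks were often at 0 in single libraries: 80.8% of all CP peaks in CP WT 2, 52.5% in CP Polg 1 and 69.6% in NAC WT 2, against 7.10 to 41.9% of peaks in the other H3K27ac libraries. In the 10 windows, 73.5% of 446 CP peaks were at 0 in CP WT 2 and 51.4% of 356 NAC peaks in NAC WT 2. Yet peaks of 1 to 5 reads made up 0.75% of CP WT 2, whose median peak above 0 held 331 reads. Thalamic transcription factors summed to 3937 to 5341 CPM (reads scaled to the size of the library) in PVT, with all 9 genes above 0, and to 209 to 523 in the other regions. Cortical factors summed to 1906 to 2435 CPM in COR and 536 to 1080 CPM elsewhere, and effector genes of striatal projection neurons to 5073 to 11386 CPM in CP and NAC and 1737 to 2539 CPM in PVT and COR. Astrocyte genes summed to 620 to 703 CPM in PVT, 376 to 616 CPM in COR and 134 to 299 CPM in CP and NAC, with Aqp4 at 0 in PVT, COR and CP. The part of such differences in the results below was not tested.

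Bcl11b, a zinc finger factor required for the maturation of striatal projection neurons and also made by deep-layer cortical neurons, was higher in the striatum than in COR and higher in COR than in PVT. Its window read 97.8 and 109 CPM in the WT libraries of PVT and 123 and 124 CPM in the Polg libraries, and 226, 287, 242 and 262 CPM in COR. It read 925, 929, 880 and 773 CPM in CP and 513, 776, 489 and 430 CPM in NAC, in the same order of WT 1, WT 2, Polg 1 and Polg 2. The ranges of NAC, COR and PVT lay apart from each other, and those of CP and NAC overlapped. Over the 8 striatal libraries the mean was 715 ± 206 CPM (SD), which was 6.11-fold the PVT level (log2 difference 2.61 ± 0.17 SE, adjusted p = 1.56e-06) and 2.71-fold the COR level (1.44 ± 0.16, adjusted p = 0.000119) by edgeR's quasi-likelihood test. Peaks covered 43.3% of its window in CP and 43.5% in NAC, 29.6% in COR and 15.8% in PVT. Here and below, such shares count the whole length of each overlapping peak, including any part beyond the window edge. Per kb of called peak its signal was 15.1 CPM in CP, 9.50 in NAC, 6.42 in COR and 5.38 in PVT. Ordered by CPM per kb of window, Bcl11b stood at percentiles 99.0 to 99.9 in the striatal libraries and 73.4 to 80.4 in PVT.

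Foxp1 and Foxp2 are forkhead factors that can pair with each other. The Foxp1 window read 1001, 737, 919 and 804 CPM in PVT and 478, 410, 492 and 406 CPM in COR. It read 2502, 1077, 2606 and 2015 CPM in CP and 1334, 1168, 1077 and 1502 CPM in NAC. The low CP value is that of CP WT 2, and every striatal library still lay above every PVT and COR library. Foxp1 was 1.86-fold higher in the striatum than in PVT (0.89 ± 0.22, adjusted p = 0.00898) and 3.60-fold higher than in COR (1.85 ± 0.23, adjusted p = 0.000274). The first of these calls was lost without PVT WT 2 (adjusted p = 0.0521).

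The Foxp2 window read 496, 330, 468 and 388 CPM in PVT and 72.6, 20.2, 66.8 and 77.5 CPM in COR. It read 731, 234, 739 and 771 CPM in CP and 448, 217, 395 and 474 CPM in NAC, so that only 3 of the 8 striatal libraries exceeded all PVT libraries while all 8 exceeded COR. The difference from PVT was 0.19 ± 0.36 (adjusted p = 0.808), and its sign turned without CP WT 1 (-0.13) or NAC WT 1 (-0.014). Against COR the striatal level was 8.27-fold higher (3.05 ± 0.42, adjusted p = 0.000574).

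Isl1 and Ebf1 are factors of the direct pathway. Isl1, a LIM-homeodomain protein, had no peak in PVT or COR. Its window read 137, 19.4, 92.1 and 85.3 CPM in CP and 214, 105, 82.6 and 200 CPM in NAC, the lowest being CP WT 2. The zeros of PVT and COR follow from the absence of a called peak in those tables, so neither a fold nor a p is given for them. Ebf1, a helix-loop-helix factor that shapes the matrix compartment of the striatum, read 31.6, 50.3, 61.1 and 63.7 CPM in PVT and 12.2, 1.92, 2.20 and 1.63 CPM in COR. It read 203, 204, 118 and 155 CPM in CP and 51.5, 51.6, 87.5 and 90.6 CPM in NAC. All CP libraries lay above all NAC libraries, and the NAC and PVT ranges overlapped. Ebf1 was 28.8-fold higher in the striatum than in COR (4.85 ± 0.52, adjusted p = 0.000118), and its difference from PVT (1.07 ± 0.42) did not pass (adjusted p = 0.0723), though it was called without COR WT 1 or COR WT 2 (adjusted p = 0.0107 and 0.0106). Its peaks covered 2.94% of a 430 kb window in CP, the smallest share of the 10 genes there.

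Six3 and Sp9 are needed for neurons of the indirect pathway. Six3, a homeodomain protein, had no peak in PVT and 1 peak in COR, where it read 0, 2.79, 0 and 4.80 CPM. It read 56.3, 79.2, 154 and 68.1 CPM in CP and 63.3, 57.7, 57.7 and 77.8 CPM in NAC, all far above the COR values. No p is given against PVT, which has no called peak there. The difference from COR was large and did not pass (5.35 ± 1.85, adjusted p = 0.0666). It was called without COR WT 2 (adjusted p = 0.0276), COR Polg 2 (0.031) or CP WT 1 (0.0415), with no extension of the span (0.000282), with 50 kb (0.0335) and by DESeq2 (0.000783). Sp9, a zinc finger factor, read 8.98, 4.37, 12.8 and 5.16 CPM in PVT and 6.17, 0, 7.39 and 3.29 CPM in COR. It read 74.0, 80.3, 66.3 and 70.6 CPM in CP and 103, 16.7, 40.4 and 110 CPM in NAC. The striatal libraries lay above PVT and COR without overlap, the nearest being NAC WT 2. Sp9 was 17.2-fold higher than in COR (4.10 ± 1.27, adjusted p = 0.0377), a call lost on leaving out any of 11 of the 16 libraries in turn (adjusted p = 0.0501 to 0.151, for all but COR WT 1, COR WT 2, CP WT 1, CP WT 2 and NAC WT 2). It was 9.01-fold higher than in PVT, which did not pass (3.17 ± 1.20, adjusted p = 0.0651). It was called without COR WT 1 (0.00747), COR WT 2 (0.00738) or CP WT 1 (0.049), without the 3 sparse libraries (0.0493), with 50 kb (0.0109), with Polg libraries alone (0.0333) and by DESeq2 (0.00336). The Sp9 window also holds the coding gene Cir1.

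Meis2, Rarb and Zfp503 complete the set. Meis2, a homeodomain factor of the lateral ganglionic eminence and its neurons, had no H3K27ac peak in PVT over a 246 kb window and read 221, 93.6, 131 and 211 CPM in COR. It read 855, 510, 1345 and 761 CPM in CP and 616, 668, 390 and 724 CPM in NAC. Both striatal regions lay wholly above COR, by 4.35-fold (2.12 ± 0.33, adjusted p = 0.00207). Its PVT zeros follow from the absence of a called peak, so no p is given for them. Rarb, a retinoic acid receptor, read 404, 407, 416 and 483 CPM in PVT and 273, 309, 279 and 340 CPM in COR. It read 742, 700, 1042 and 1046 CPM in CP and 814, 1057, 629 and 1184 CPM in NAC. The striatal libraries were higher without overlap, 2.09-fold over PVT (1.06 ± 0.18, adjusted p = 0.000952) and 2.98-fold over COR (1.57 ± 0.18, adjusted p = 0.00018). The Rarb window also holds Top2b. Zfp503, a zinc finger factor also known as Nolz1, had 1 peak in PVT (19.97, 11.7, 20.3 and 15.9 CPM) and 1 peak in COR (0, 0, 0 and 5.87 CPM). Its 8 CP peaks summed to 104, 67.4, 44.8 and 66.8 CPM and its 6 NAC peaks to 92.5, 97.6, 67.7 and 39.1 CPM. The difference from COR was called (adjusted p = 0.0024), though not with 50 kb (0.0509), with Polg libraries alone (0.211) or per kb of called peak (0.0708), and that from PVT was 2.05 ± 1.07 (adjusted p = 0.182), called without COR Polg 1 (0.0109) or COR Polg 2 (0.0114).

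**Figure D1:**
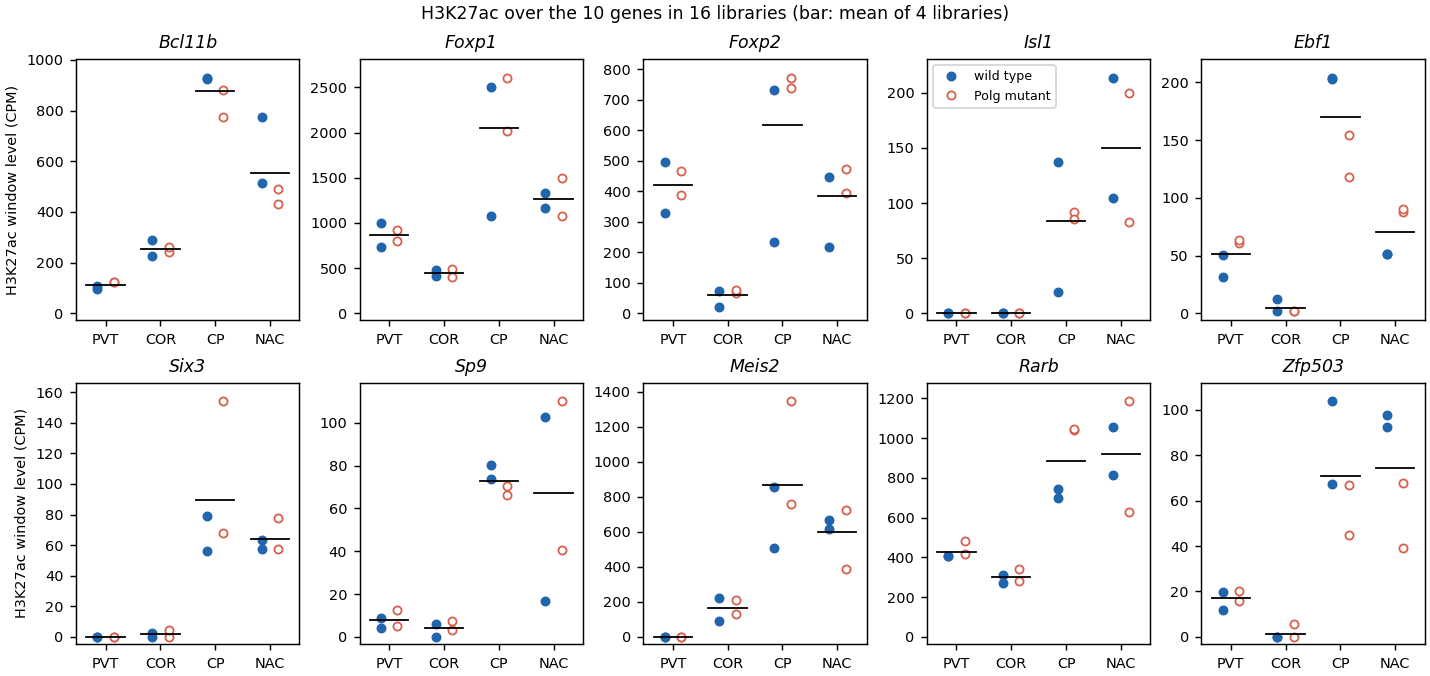
H3K27ac window level of each gene in CPM (vertical axes, each with its own scale) in the 4 regions (horizontal axes), with WT libraries as filled blue points, Polg libraries as open red points and bars for the mean of 4 libraries. Isl1, Six3 and Meis2 sit at 0 in PVT, and Foxp2 is the gene whose PVT and striatal points mix most, with 3 of 8 striatal libraries above all PVT libraries.

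Counted together, 6 of the 10 windows were called higher in the striatum than in PVT (Bcl11b, Foxp1, Isl1, Six3, Meis2 and Rarb) and none lower, where 11.2% of all windows were called higher and 19% lower. For Isl1, Six3 and Meis2 that call restates that PVT has no peak there, which leaves Bcl11b, Foxp1 and Rarb among the 7 genes with PVT peaks. Against COR, 9 were called higher (all but Six3) and none lower, where 7.3% of all windows were called higher and 14.2% lower, and for Isl1 the call again restates a missing peak. All 8 striatal libraries lay above all 4 PVT libraries for 8 of the genes (not Foxp2 or Ebf1) and above all 4 COR libraries for all 10. For Isl1, Six3 and Meis2 against PVT, and Isl1 against COR, that separation also restates a missing peak. The share of all windows separated in this way is not given here, so these counts are not set against it. The median log2 difference of the genes was 2.33 against PVT and 3.57 against COR, beside -0.24 and -0.30 over all windows. It was 1.07 over the 7 genes and 2.58 over the 8 genes with no group at 0. Scaling by DESeq2 size factors moved the median of all windows against PVT to -0.37, and the counts of called genes stayed at 6 and 9.

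**Figure D2:**
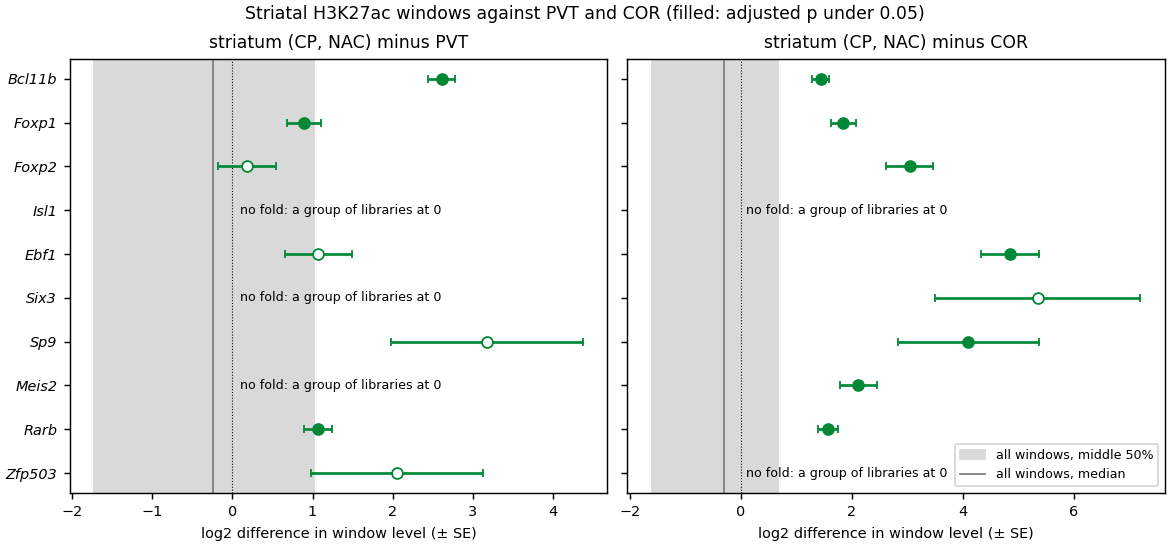
Log2 difference in window level (horizontal axes, ± SE) between the 8 striatal libraries and the 4 of PVT (left) or COR (right), with filled points for adjusted p under 0.05 and open points otherwise. The grey band holds the middle 50% of all windows, and 7 genes against PVT and 8 against COR have a fold to plot, the rest having a group of libraries at 0.

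These sums join how much of a window was called as peak with how strong the peaks were. The 10 windows held 446 CP peaks and 356 NAC peaks, against 192 in PVT and 201 in COR. By whole peak lengths, all 10 genes had a larger share of their window under peaks in CP than in PVT or COR. The step was smallest for Rarb, at 7.99% in CP, 7.97% in PVT, 6.16% in COR and 17.8% in NAC. Sp9 had 33.6% of its window under NAC peaks of 4.57 CPM per kb and 8.77% under CP peaks of 18.9 CPM per kb. Per kb of called peak, over the 7 genes with a peak in all 4 tables, Bcl11b alone was called against PVT (1.15 ± 0.16, adjusted p = 0.00979) and against COR (0.89 ± 0.15, adjusted p = 0.0375). On that scale 4.62% of 15369 windows were called higher and 0.143% lower against PVT, and 0.904% higher and 0.0586% lower against COR, and the median of all windows was 0.58 and 0.57. Rarb (0.48 ± 0.17 and 0.62 ± 0.17) and Foxp1 (0.34 ± 0.21 and 0.74 ± 0.21) did not pass, with adjusted p from 0.0797 to 0.384. In intervals that hold a peak of all 4 tables, present for 5 of the genes, Bcl11b was higher than in PVT (2.89, adjusted p = 8.54e-06). Bcl11b (1.67), Foxp1 (1.87) and Foxp2 (4.95) were higher than in COR there, with adjusted p of 0.000441, 0.00116 and 0.00316. Of 9348 windows with such intervals, 4.96% were called higher and 10.6% lower against PVT, and 3.43% higher and 7.02% lower against COR. Rarb (-0.38) and Foxp2 (-1.39) had the other sign against PVT in these intervals and did not pass (adjusted p = 0.404 and 0.162). With WT libraries alone, 3 genes were called higher than in PVT (Bcl11b, Isl1 and Meis2) and 3 higher than in COR (Bcl11b, Rarb and Zfp503), where 2.63% and 0.554% of 18606 windows were called higher. With Polg libraries alone 7 and 8 were called, where 9.31% and 5.28% of 19106 windows were called higher.

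**Figure D3:**
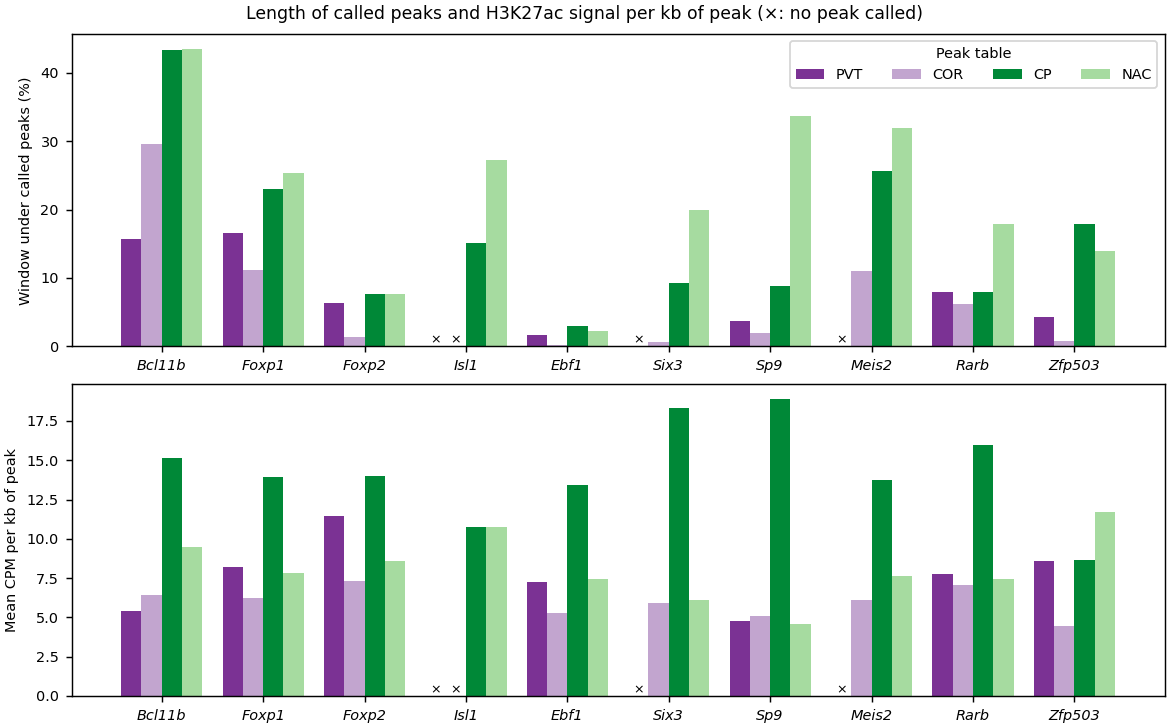
Share of each window under called peaks in percent (top) and mean CPM per kb of called peak (bottom) for the 10 genes in the PVT, COR, CP and NAC tables, with crosses where no peak was called. Shares use the whole length of each overlapping peak. CP bars are the tallest per kb for every gene but Zfp503, while NAC bars are the tallest in covered share for 8 genes and reach 43.5% in Bcl11b. The median of 15369 windows was also higher per kb in CP than in NAC (log2 difference 0.68).

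Between the 2 striatal regions, Bcl11b was the single gene called, 1.61-fold higher in CP than in NAC (0.69 ± 0.17, adjusted p = 0.0274, 3 of 4 CP libraries above all NAC libraries), where 2.61% of all windows were called higher and 5.9% lower. That call was lost on leaving out PVT WT 1 or WT 2, PVT Polg 1 or Polg 2, CP Polg 1, NAC WT 1 or NAC Polg 1 or Polg 2 (adjusted p = 0.0519 to 0.0847), and with total counts as the scale (0.1001). Ebf1 was 2.46-fold higher in CP in all 4 libraries and did not pass (1.30 ± 0.47, adjusted p = 0.113), though it was called without COR WT 1 or COR WT 2 (0.0227 for both) and by DESeq2 (0.0325). Foxp1 (0.68 ± 0.24, adjusted p = 0.11) was called higher in CP without CP WT 2 (0.92, adjusted p = 0.0095), without the 3 sparse libraries (0.0469), with total counts as the scale (0.047) and by DESeq2 (0.00724). Foxp2 (0.67 ± 0.42), Meis2 (0.50 ± 0.35) and Isl1 (-0.85 ± 0.67) did not pass, Isl1 being called lower in CP without CP WT 1 (-1.90, adjusted p = 0.0413), and Six3, Sp9, Rarb and Zfp503 changed sign with the processing. Per kb of called peak, Bcl11b (0.69, adjusted p = 0.0373) and Rarb (1.07, adjusted p = 0.0174) were called higher in CP, where 5.47% of windows were higher and 0.826% lower. On that scale the median of all windows was 0.68, so the Bcl11b difference lay close to that of a typical window. In shared intervals none of 5 genes was called by edgeR, 1 having an unadjusted p under 0.05 (Foxp1), where 1.02% of windows were higher and 2.87% lower. For the window sums, the median of the 10 was 0.47, beside -0.11 over all windows.

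Between the 2 comparison regions, 3 genes were higher in COR than in PVT (Bcl11b, Six3 and Meis2, where 9.92% of all windows were higher) and 4 were lower (Foxp1, Foxp2, Ebf1 and Zfp503, where 8.19% were lower). Bcl11b was 2.25-fold higher in COR (1.17 ± 0.17, adjusted p = 0.000692). Foxp2 fell by 2.86 ± 0.44 on the log2 scale (adjusted p = 0.00108) and Ebf1 by 3.78 ± 0.51 (adjusted p = 0.000447), which left COR the lowest region for both. Foxp1 fell by 0.95 ± 0.24 (adjusted p = 0.0181), a call lost without PVT WT 1 (0.0775), PVT Polg 1 (0.0656), COR WT 2 (0.0647) or COR Polg 2 (0.0731). For Six3 and Meis2 the calls restate that PVT has no peak there, and Six3 rests on 1 small COR peak with reads in 2 of 4 libraries. The Six3 call was lost on leaving out any of 6 libraries in turn, with no extension of the span and with 50 kb. The Zfp503 call rests on 1 small COR peak with reads in 1 of 4 libraries. It was lost with 50 kb (edgeR adjusted p = 0.386) and with Polg libraries alone (0.46). Sp9 did not pass (-0.93 ± 1.18, adjusted p = 0.726) and was called lower in COR without COR WT 1 (adjusted p = 0.00972). Rarb did not pass (-0.51 ± 0.19, adjusted p = 0.0941) and was called lower in COR without NAC Polg 1 (0.0427) or NAC Polg 2 (0.0417) and by DESeq2 (0.0155). In shared intervals Bcl11b was higher in COR (1.22) and Foxp1 (-1.72) and Foxp2 (-6.34) lower, where 3.58% of windows were higher and 3.99% lower, and per kb of called peak no window of the table was called. The comparisons with PVT and with COR share those libraries.

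**Figure D4:**
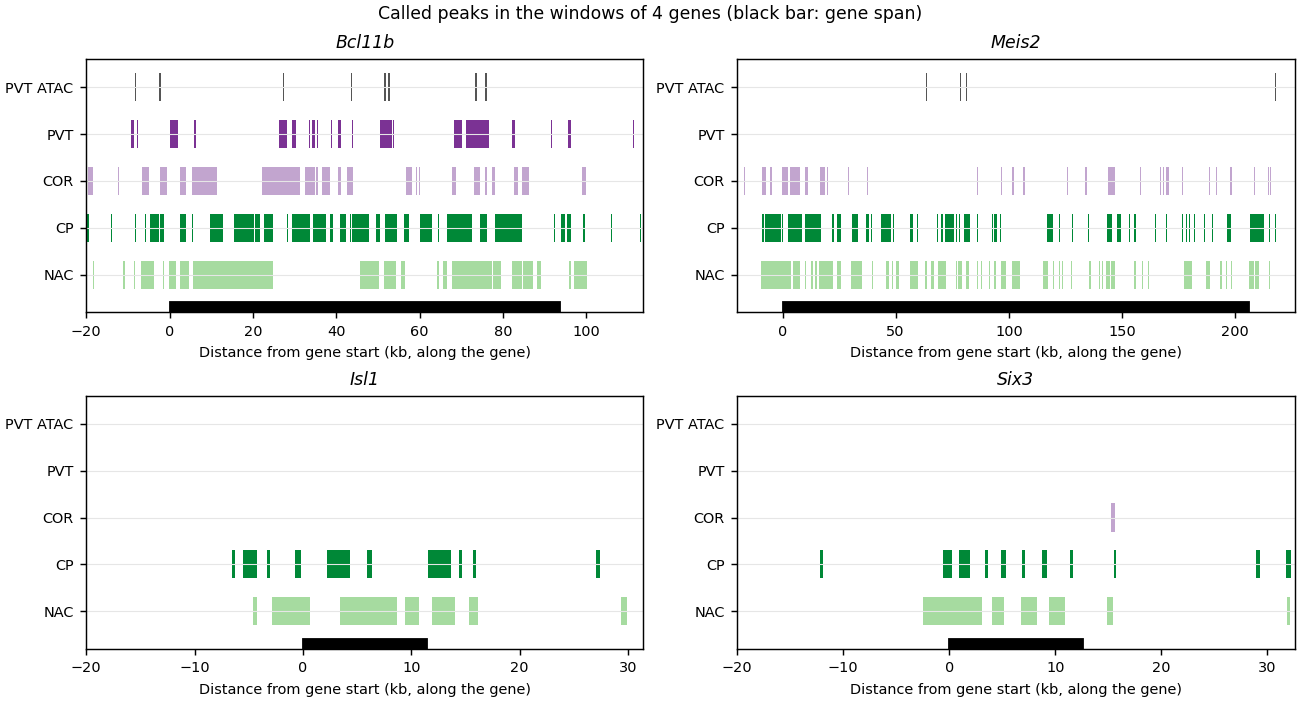
Called peaks (coloured blocks) of each table along the windows of Bcl11b, Meis2, Isl1 and Six3, by distance from the gene start in kb, with the gene span as a black bar. Isl1 has 10 CP and 7 NAC peaks and none elsewhere, while Meis2 has 4 ATAC peaks in PVT and no H3K27ac peak there.

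The peaks themselves showed where this signal lies. The strongest Bcl11b peak of NAC was 19.1 kb long, inside the gene at chr12:107979425-107998487, and read 242, 251, 172 and 144 CPM. The strongest of CP, at chr12:107931448-107937508, read 110, 67.1, 105 and 134 CPM and overlaps the strongest PVT peak, at chr12:107927542-107932918 (33.5, 41.3, 34.2 and 39.9 CPM). The strongest Isl1 peaks lay within the gene, at chr13:116305360-116307442 in CP (39.6, 0, 28.2 and 38.2 CPM) and chr13:116301055-116306252 in NAC (112, 26.8, 29.2 and 59.1 CPM). Those of Six3 lay at the start of the gene span, at chr17:85613044-85613840 in CP (10.5, 0, 68.0 and 27.1 CPM) and chr17:85612751-85616694 in NAC (38.9, 18.9, 29.8 and 28.7 CPM). The zeros of both CP peaks fall in CP WT 2. The strongest Meis2 peak of NAC, at chr2:116063695-116077223, was 13.5 kb long, covered the promoter shown above and read 138, 86.3, 54.7 and 119 CPM. In CP a peak of 6.02 kb covered that promoter with a mean of 98.2 ± 51.0 CPM (SD, n = 4), and the Isl1 promoter had 4.61 ± 9.16 CPM in CP and 38.2 ± 22.7 CPM in NAC. The Six3 promoter read 3.47 ± 4.04 CPM in CP and 8.10 ± 11.4 CPM in NAC, so that the spread between libraries there was larger than the mean. Foxp2 had its strongest PVT peak (chr6:15404633-15414523, 203, 114, 180 and 137 CPM) and its strongest CP peak (chr6:15183316-15191494, 172, 55.4, 94.5 and 180 CPM) in different places within the gene.

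Of the 446 CP peaks in the windows, 171 (38.3%, exact 95% interval 33.8 to 43.0%) overlapped a NAC peak by at least 1 base, against 26.6% of all CP peaks. Of the same peaks, 85 (19.1%) overlapped a PVT peak and 84 (18.8%) a COR peak, against 21.7% and 24.7% of all CP peaks. Of the 356 NAC peaks, 148 (41.6%, interval 36.4 to 46.9%) overlapped a CP peak, against 23.4% of all NAC peaks, and 24.2% and 23.6% overlapped PVT and COR peaks, against 25.4% and 27.8% of all. The reverse shares were also above those of all peaks. Of 192 PVT peaks, 35.4% overlapped a CP peak and 41.7% a NAC peak (19.1% and 25.1% of all), and of 201 COR peaks 44.8% and 47.8% (20.1% and 25.6% of all). Peaks near one gene share their libraries and are not independent, and intervals cover counting error only. Peaks in CP with no counterpart in PVT or COR made up 70.0% of the 446, and 64.9% of all CP peaks, while peaks with no such counterpart that were also in NAC made up 20.9%, and 9.70% of all. All 10 CP peaks of Isl1, all 33 of Ebf1 and all 9 of Sp9 had no PVT or COR counterpart, whereas 13 of 34 Bcl11b peaks and 85 of 139 Foxp1 peaks had none.

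Promoters of the genes lay under an H3K27ac peak in 8 of 12 cases in CP and 7 of 12 in NAC, against 5 in PVT and 2 in COR. Over all promoters the shares were 23.0% in CP, 39.1% in NAC, 42.4% in PVT and 38.7% in COR, so that CP, the region with the lowest share of all promoters, had the highest count among these genes. Foxp1 has 3 promoter entries, and its internal start at chr6:99028249-99028548 lay under a peak of every table, from 12.9 ± 11.1 CPM in COR to 247 ± 54.3 CPM in PVT. The Rarb promoter shown above lay under peaks of PVT (14.2 ± 4.51 CPM), CP (22.3 ± 17.2 CPM) and PVT open chromatin (6.66 ± 2.36 CPM) and under none of COR or NAC.

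Other genes of the striatal programme were higher in the striatum as well. Over all windows, 11.2% were called higher and 19% lower than in PVT, and 7.3% higher and 14.2% lower than in COR, beside which the counts of each list stand. Of 25 effector genes of striatal projection neurons, such as receptors and signalling proteins, 18 were called higher than in PVT and none lower, and 19 were higher than in COR and 1 lower. A group of libraries was at 0 for 2 of the 25 against PVT and 1 against COR. Adcy5, the main adenylyl cyclase of these neurons, read 911 ± 259 CPM in the striatum (n = 8), 222 ± 29.3 CPM in PVT and 85.5 ± 6.78 CPM in COR (n = 4 each). Rgs9, a regulator of G-protein signalling, was higher than in PVT by 3.29 ± 0.30 and Ppp1r1b, the dopamine-regulated phosphatase inhibitor DARPP-32, by 2.91 ± 0.27. Of 16 other factors of the striatal lineage, 8 were higher than in PVT and 6 higher than in COR, with none lower. Of the 16, 6 had no reads in PVT, so a call against PVT for any of these restates that absence. Dlx5 and Dlx6, homeodomain genes of GABAergic forebrain neurons, had no PVT peak and read 404 ± 146 and 439 ± 159 CPM in the striatum. Of the 18 paralogues of the 10 genes, 3 were called higher and 2 lower in either comparison, the 2 lower than in PVT including Zfp703, whose direction is in doubt. Bcl11a, a relative of Bcl11b, was higher than in PVT by 2.53 ± 0.25 (773 ± 168 against 135 ± 34.0 CPM). Zfp703, the relative of Zfp503, had no CP peak and was called lower against PVT (adjusted p = 0.0164), although the mean over all striatal libraries (11.1 ± 15.4 CPM) was above that of PVT (4.13 ± 1.93 CPM).

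Thalamic factors went the other way, with 9 of 9 lower in the striatum than in PVT, among them Rora (224 ± 69.2 against 1939 ± 328 CPM). For 6 of the 9 a group of libraries was at 0, so those calls may restate a missing peak. Lhx9, Zic1, Zic4 and Prox1 had no reads in CP. Against COR, 3 of the 9 thalamic factors were lower and none higher, with a group of libraries at 0 for 7. Cortical factors were lower than in COR for 9 of 14 genes and higher for 1. Against PVT, 5 of the 14 were lower and 3 higher, with a group of libraries at 0 for 4. Pan-neuronal genes were higher than in PVT for 2 of 8, and than in COR higher for 1 and lower for 1. Factors of interneurons from the medial ganglionic eminence were higher than in PVT for 2 of 7 and than in COR higher for 2 and lower for 1. Astrocyte genes were lower for 2 of 8 in both comparisons, microglial and endothelial genes for 1 of 8 in both, and none of 6 tested oligodendrocyte genes was called in edgeR's test of either. Given the shares of all windows, counts of 1 or 2 genes in lists this small are not read as a trait of the list. A group of libraries was at 0 for 3 of the 14 cortical genes against COR and 4 of the 7 interneuron genes against PVT. For astrocyte genes it was 4 of 8 in both comparisons.

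Across the 16 H3K27ac libraries, log2 window levels of the 10 genes rose and fell together in 44 of 45 pairs, with a median Pearson r of 0.78, from -0.03 for Foxp2 and Meis2 to 0.94 for Isl1 and Six3. The windows nearest in pattern to the mean of the 10 were those of Bcr (r = 0.98), Tfec (0.98), Zbtb20 (0.98), Adcy5 (0.97) and Hacd2 (0.97). For single genes the nearest windows were Drd2 for Ebf1 (0.95), Stard3 for Bcl11b (0.97), Nckap1l for Foxp1 (0.98), Ror1 for Foxp2 (0.96) and Lce3e for Isl1 (0.98). They were Tgfa for Six3 (0.97), Adgrl3 for Sp9 (0.99), Rgs13 for Meis2 (0.99), Spata13 for Rarb (0.96) and Rpl26 for Zfp503 (0.95). These are descriptions over libraries that share 4 regions and 4 peak sets, and windows without a peak in a table read 0 there, as Isl1 and Six3 do in PVT. The r of pairs of other windows is not given here, so the 44 of 45 is not set against it.

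Between genotypes, no window of the 10 was called in any region by edgeR's test, where 0.00512% of all windows were called higher and 0.00512% lower in PVT, 0% and 0% in COR, 0.697% and 0.466% in CP and 0.0102% and 0% in NAC. At an unadjusted p under 0.05 there were 2 in COR (Ebf1 and Zfp503) and 0 in the other regions. The share of all windows under that p is not given here, so such counts are not set against it. DESeq2 called 1, Zfp503 in COR, where 1 of 4 libraries had reads, and it called 0.804% of all windows in PVT, 3.8% in COR, 13.4% in CP and 5.57% in NAC. Leaving out COR Polg 1 also let edgeR call Zfp503 there (adjusted p = 0.0212), with COR Polg 2, the library with the reads, as the lone mutant library and the spread taken from other groups. Leaving out CP WT 1 let it call Foxp1 higher in Polg in CP (1.20 ± 0.31, adjusted p = 0.0165), a comparison that then rests on CP WT 2, with 73.5% of the peaks in these windows at 0, as the lone WT library of CP, whose spread is taken from the other groups, and 22.7% of all windows were called in that fit. The difference between regions in the genotype effect passed for none of the 10, where 0.133% of all windows passed. At an unadjusted p under 0.05 there were 2, Ebf1 (edgeR adjusted p = 0.739) and Zfp503 (edgeR adjusted p = 0.556), and DESeq2 called Zfp503 (adjusted p = 0.012) and 3.98% of all windows. Bcl11b, which had the smallest standard error of the 10 in each region, differed by -0.17 ± 0.24 in CP and -0.49 ± 0.24 in NAC (log2 ± SE).

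At single peaks, edgeR called none of 190 tested in PVT, 174 in COR, 358 in CP, 330 in NAC and 104 of open chromatin in PVT, where 0%, 0%, 0%, 0.00286% and 0.00114% of all peaks were called. At an unadjusted p under 0.05 there were 15, 24, 15, 1 and 5, which is 7.89%, 13.8%, 4.19%, 0.303% and 4.81% of those tested, beside 8.09%, 9.29%, 6.69%, 1.2% and 6.13% of all peaks. DESeq2 called 17, 42, 56, 3 and 0, where it called 10.1%, 17.5%, 26.4%, 1.39% and 0.00342% of all peaks. The peak of smallest p that was lower in Polg in COR lay in Rarb, at chr14:16533109-16535463, with 19.3 and 30.1 CPM in WT and 1.20 and 0.681 CPM in Polg (adjusted p = 0.535). In CP it lay in Ebf1 at chr11:44658239-44658489, with 14.7 and 23.2 CPM in WT and 0 and 0 in Polg (adjusted p = 0.373). In NAC it lay upstream of Bcl11b at chr12:108005381-108005631, with 11.1 and 18.96 CPM in WT and 0 in both Polg libraries (adjusted p = 0.984). The leading peak of the other direction, higher in Polg, had the smaller unadjusted edgeR p in PVT, COR and CP. It had the larger p in NAC and in open chromatin. In COR the peak higher in Polg lay in Foxp2 at chr6:15335311-15336721, with 0 in both WT libraries and 12.013 and 16.9 CPM in Polg (adjusted p = 0.535). In CP it lay in Foxp1 at chr6:99437716-99438355, with 0 in both WT libraries and 65.1 and 7.81 CPM in Polg (adjusted p = 0.373). Without CP WT 1, edgeR called 36 of 379 CP peaks (9.5%) and 5.42% of all CP peaks, with CP WT 2, where 80.8% of peaks are at 0, as the lone WT library. Without NAC Polg 2 it called 1 of 349 NAC peaks and 0.162% of all, with 1 mutant library left. In both fits the lone library is assumed to vary like the other group.

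Open chromatin in PVT was present at 8 of the 10 windows, with none at Isl1 or Six3. Of the 109 ATAC peaks, 45 (41.3%, exact 95% interval 31.9 to 51.1%) overlapped a PVT H3K27ac peak, against 42.6% of all ATAC peaks. Meis2 had 4 ATAC peaks although no H3K27ac peak was called there in PVT, the strongest, picked after its values were seen, being chr2:115988624-115988952 with 4.48, 4.79, 4.11 and 1.55 CPM. Bcl11b had 8, Foxp1 29, Foxp2 20, Ebf1 16, Rarb 28 and Sp9 and Zfp503 2 each. The ATAC peak of smallest p lay in Foxp2 at chr6:15161927-15162255, with 7.34 and 5.90 CPM in WT and 1.03 and 0.442 CPM in Polg (-3.24 ± 0.99, adjusted p = 0.708).

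RNA of the 10 genes was read in PVT material only. Per kb of gene span, the median over 20 libraries was 0.319 CPM for Foxp2, 0.290 for Ebf1, 0.263 for Sp9, 0.243 for Foxp1, 0.179 for Meis2, 0.133 for Rarb, 0.0597 for Bcl11b, 0.0352 for Six3, 0.0226 for Isl1 and 0.0105 for Zfp503. Whether reads were counted over exons or whole spans is not given in the sources used here, so this order is rough. The genes with no PVT H3K27ac peak were split. Isl1 (median 0.258 CPM) and Six3 (0.443 CPM) had median percentiles among genes of 31.2 and 40.1 over the libraries. Meis2 (36.9 CPM, 6.29 to 487 CPM) had one of 92.1. Of the genes with a PVT peak, Zfp503 stood lower, at 12.7, and Sp9 at 40.7. Libraries of 1 group differed widely, as with Foxp2 in the WT group at 113, 122, 177 and 5627 CPM. Polg itself was as scattered, with medians of 2.996 CPM in WT and 1.60, 45.7, 38.6 and 47.6 CPM in the 4 mutant groups in the order of the opening. The highest WT library read 3.66 CPM, and 11 of the 16 mutant libraries lay above it. The labels name only the substitution, so it is not known whether the level should differ.

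Bcl11b read 2.20, 5.17, 10.1 and 12.6 CPM in the WT group, and 1.83, 10.3, 47.0 and 82.1 CPM in the euthymic COX-positive Polg group. It read 1.41, 3.14, 6.02 and 10.4 CPM in the euthymic COX-negative, 2.23, 3.65, 4.38 and 6.32 CPM in the depressive COX-positive and 0.878, 3.81, 7.10 and 8.52 CPM in the depressive COX-negative group. All groups overlap, and the 2 highest libraries belong to euthymic COX-positive Polg. Ebf1 read 21.5, 24.5, 66.6 and 73.5 CPM in the WT group and 137, 168, 443 and 856 CPM in the euthymic COX-negative Polg group. These 2 groups did not overlap, but they differ in both genotype and COX staining and were not among the pairs compared. The share of all genes separated in this way is not given here, and Ebf1 did not pass the edgeR test among 5 groups (adjusted p = 0.112). The euthymic COX-positive (42.0 to 222 CPM), depressive COX-positive (51.4 to 144 CPM) and depressive COX-negative (63.4 to 179 CPM) Polg groups overlapped both.

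None of the 10 genes passed a test of any difference among the 5 groups in edgeR, where 27% of 28446 genes passed. Of the 10, 3 had an unadjusted p under 0.05 (Rarb, Foxp2 and Ebf1), as did 11979 of all 28446 genes. DESeq2 called 2 in that test, Bcl11b (adjusted p = 0.00842) and Ebf1 (0.0133), where it called 26.5% of all genes. In the 5 pairwise comparisons edgeR called no gene of the table. Of the 10 genes 1, 0, 0, 1 and 1 had an unadjusted p under 0.05 in the order that follows. Of all 28446 genes, 4357, 6040, 5667, 4980 and 6431 did, in the same order. The gene of smallest p was Rarb for Polg against WT (-2.68 ± 1.26, adjusted p = 0.308), whose log2 difference turned to 0.040 without 1 WT library. It was Bcl11b for COX negative against positive in the euthymic state (-2.75 ± 1.42, adjusted p = 0.256) and Foxp2 in the depressive state (1.63 ± 1.17, adjusted p = 0.445). For depressive against euthymic it was Bcl11b in COX-positive (-3.09 ± 1.44, adjusted p = 0.26) and Foxp1 in COX-negative material (-2.23 ± 1.04, adjusted p = 0.197). DESeq2 called Bcl11b in the euthymic COX comparison (-2.86, adjusted p = 0.0468) and in the COX-positive comparison of states (-3.34, adjusted p = 0.0198), where it called 8.92% and 7.82% of all genes, and no member in the other 3, where it called 5.26%, 8.65% and 10.2%. Both Bcl11b contrasts use the same euthymic COX-positive Polg libraries. Scaling moved the median log2 of all genes for Polg against WT from -0.02 to 0.19 with DESeq2 size factors and to -0.50 with total counts alone.

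**Figure D5:**
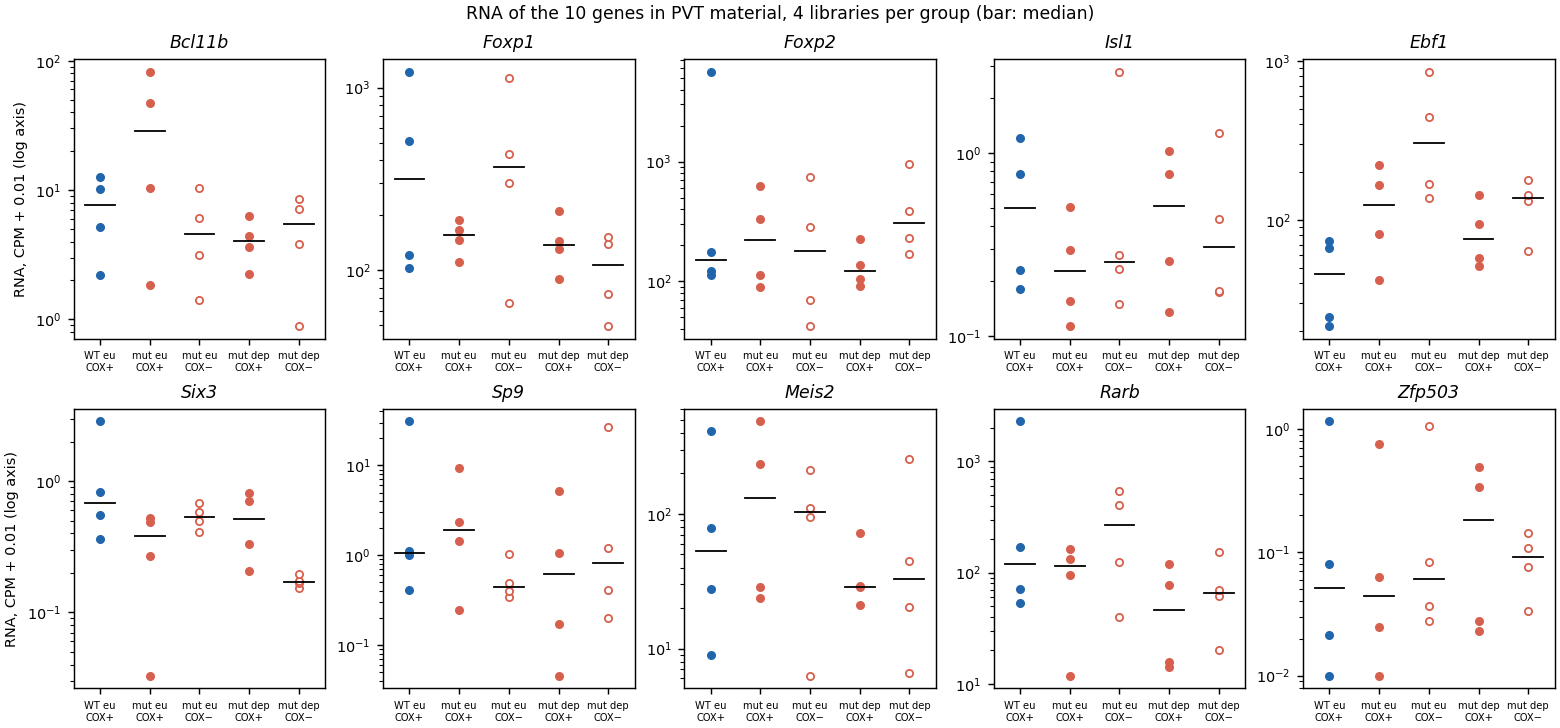
RNA of each gene in CPM + 0.01 on log axes for the 5 groups of PVT libraries, with 4 points and a median bar per group. WT points are filled blue, Polg points red, filled for COX positive and open for COX negative, and libraries of 1 group can lie far apart, as for Foxp2 in WT from 113 to 5627 CPM.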

How the data were processed

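The authors deposited raw read counts per peak for H3K27ac in each of 4 regions and for PVT ATAC-seq, and raw read counts per Ensembl gene for RNA. Tools named in the submitters' processing notes are HOMER, STAR, DESeq2, featureCounts and Subread, with the build mm10 and without roles or versions. Each chromatin table has its own merged peak set, per the file headers, and columns headed TG were taken as the Polg(D181A) libraries. Peak counts were summed over each coding gene's span extended by 20 kb, with spans from RefSeq. Of 21883 windows, 19518 passed edgeR's filter on low counts. Differences were tested with edgeR 4.0.16 in R 4.3.3 (quasi-likelihood test, TMM scaling, Benjamini-Hochberg adjustment over all features, threshold 0.05), with all 16 H3K27ac libraries in 1 fit, 4 libraries per chromatin table for single peaks and all 20 libraries for RNA. The count models took a biological coefficient of variation of 1.01 for windows and 1.365 for RNA from the data. DESeq2 1.42.0, other scalings, filters, window sizes and left-out libraries were tried as alternatives. CPM values use the scaled library sizes. The scripts were tested on simulated data. Of 53715 RNA identifiers, 53620 matched a gene name.

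The members and lists were chosen with earlier results of these data known. The 10 genes are always named. From other lists, up to 4 genes of smallest p in the striatal comparisons could be named. For peaks, the strongest of each gene and region and, per table, those of smallest genotype p in each direction were eligible. For RNA, the gene of smallest p per comparison was named. For like patterns, the 5 windows most correlated with the mean of the 10 genes and 1 window per gene were named. Input libraries were not used.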

Additional observations from a re-analysis of the deposited data

Results flagged for a closer look

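In 6 cases the highest of the 4 RNA libraries of a group stood far from the other 3, by a gap that chance gives in about 1 in 20 groups. On the log2(CPM + 1) scale these were Foxp2 at 12.5, Sp9 at 4.996 and Zfp503 at 1.10 in the WT group, Zfp503 at 0.799 in the euthymic COX-positive Polg group, and Isl1 at 1.92 and Zfp503 at 1.03 in the euthymic COX-negative Polg group.

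The H3K27ac windows of 2 genes moved in opposite directions with genotype in different regions, every Polg library lying on one side of every WT library. With 2 libraries per genotype and region, such separation is often met without any difference. For Bcl11b the ratio of Polg to WT means was 1.19 in PVT, 0.892 in CP and 0.713 in NAC. For Ebf1 it was 1.52 in PVT, 0.672 in CP and 1.73 in NAC. The edgeR test of the difference between regions did not pass for Bcl11b (adjusted p = 1) or Ebf1 (adjusted p = 0.739).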

How the results depend on the processing

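Of 1208 values of single genes recomputed under another setting, 1078 kept their direction and side of the threshold, 72 lost a call, 32 gained one and 26 changed sign. The number of the 10 genes called against PVT (6), against COR (9), for CP against NAC (1) and for COR against PVT (7) became 1, 3, 0 and 3 in intervals shared by all 4 tables, 3, 3, 0 and 2 with WT libraries alone and 1, 1, 2 and 0 per kb of called peak. For CP against NAC it was also 2 with no extension of the span (18.1% of all windows called), 3 by DESeq2 (25% of all) and 2 without the 3 libraries that have over 50% of their peaks at 0 (15.8% of all), an alternative that, like the scale per kb of peak, was chosen after seeing the data. Leaving out 1 library in turn gave 5 to 8, 8 to 10, 0 to 2 and 5 to 8 genes. The share of all windows called moved as well. It was 44.5%, 37.9%, 27.3% and 25.3% without CP WT 1, and 26.9%, 13.1%, 6.7% and 10.8% without COR Polg 1. Between genotypes, leaving out 1 library gave 0 to 1 windows in COR, 0 to 1 in CP and 0 to 1 for the difference between regions, 0 to 36 peaks in CP and 0 to 1 in NAC. DESeq2 called 1 window in COR and 1 for the difference between regions, 17, 42, 56 and 3 peaks in PVT, COR, CP and NAC, and in RNA 2 genes among 5 groups, 1 for COX staining in the euthymic state and 1 between states in COX-positive material. The share of CP peaks also in NAC was 32.7% at 50% overlap, and that of NAC peaks also in CP 36.2%. The cause was not tested.

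Signs turned as follows. Against PVT, Foxp2 was -1.39 in shared intervals, -0.036 with WT alone, -0.084 per kb of peak and from -0.13 to 0.35 with 1 library left out (negative without CP WT 1 or NAC WT 1), and Rarb was -0.38 in shared intervals. For CP against NAC, Six3 was -0.080 without the sparse libraries. Sp9 was -0.23 with 50 kb, -2.67 in shared intervals, -0.15 with Polg alone, -0.28 without the sparse libraries, and from -0.27 to 1.07 with 1 library left out (negative without NAC WT 2 or NAC Polg 1). Rarb was 0.18 with Polg alone, 0.037 without the sparse libraries, 1.07 per kb of peak, and from -0.28 to 0.20 with 1 library left out (positive without NAC WT 2 or NAC Polg 2). Zfp503 was 0.58 with no extension, 0.038 with Polg alone, 0.24 without the sparse libraries, and from -0.24 to 0.18 with 1 library left out (positive without CP WT 2, CP Polg 1 or NAC Polg 1). Sp9 for COR against PVT was 0.062 per kb of peak, and Rarb RNA for Polg against WT was from -2.98 to 0.040 with 1 library left out (positive without 1 of the WT libraries).

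With a replicate block, 6, 9, 1 and 6 genes were called in the regional comparisons and 0 of the peaks between genotypes. Deviations of same-numbered libraries correlated at -0.045 to 0.11 over 28 pairs, with 1 over 0.1, so the numbers were not taken to pair libraries. No paired analysis was possible for RNA because its columns carry no replicate numbers. With 2 libraries per genotype and region, and reads in peaks down to 6415127 in 1 NAC library, small genotype differences were not detectable. Large ones at single peaks could fail as well, as with the Rarb peak in COR (log2 -4.72 ± 1.31, edgeR adjusted p = 0.535). The biological coefficient of variation at H3K27ac peaks was 1.06 in PVT, 1.71 in COR, 2.20 in CP and 1.87 in NAC. Absence of a call therefore does not mean absence of a large difference.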
